A study of Sus scrofa with 11 samples.

Results

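Porcine coronary arteries cultured under low flow without a stent were compared with native coronary arteries. The members are the libraries titled Flow +, whose processed names carry LF (low-flow), and the native control libraries, 2 in each group, so 4 of the 11 libraries of the series. The labels give coronary artery as the tissue of every library and name no strain, age, sex, treatment or agent, no flow rate and no culture time for the low-flow group. Low-flow vessels are cultured and carry no stent, and native vessels are uncultured controls. Levels of the other cultured vessels are given where low-flow is set against them: high-flow without a stent (titled Flow ++, 2 libraries), stented high-flow (3 libraries) and stented static, with no flow (2 libraries). These vessels also enter the joint fit of all 11 libraries. They therefore share in the filter, the scaling and the estimate of spread behind the test of low-flow against native. The processed names carry 3d for both stented static libraries and 7d for stented high-flow replicate 3, and the labels explain neither. They also carry a number, 37 and 38 for low-flow, 34 and 36 for stented static and 2 to 32 for the other 7 libraries, and the number 25 occurs in both stented high-flow replicate 1 and native replicate 2. Whether a shared number means a shared animal is not stated, and the fit treats all 11 libraries as independent. RNA came from whole flash-frozen vessels, so every cell type of the wall contributes to each value, and fewer cells of a type and less RNA per cell cannot be told apart. Whether replicates stem from different animals is not stated in the labels, and the p-values therefore measure only the spread between libraries, which may be technical.

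The coronary wall is built mainly of smooth muscle cells in the media, lined by an endothelium that senses blood flow through shear stress and surrounded by a fibroblast-rich adventitia with nerves and fat. Smooth muscle cells can leave a contractile state, marked by myosin and actin-binding proteins, and take up a synthetic state that makes and remodels matrix. Laminar shear induces transcription factors such as KLF2 and KLF4 in endothelium, and low or disturbed shear is known as the setting in which intimal thickening develops.

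Depth was 22840082 and 26785124 counts in the low-flow libraries and 17507068 and 20242681 counts in the native libraries, within a range of 13496636 to 26785124 over the series. Levels are given as CPM, counts brought to a common library size with TMM scaling. The Pearson correlation of log2 CPM was 0.979 between the low-flow libraries and 0.971 between the native libraries. Between a low-flow and a native library it was 0.869 to 0.880, and between a low-flow library and the other cultures 0.910 to 0.962. Contractile smooth muscle genes summed to 19201 and 19218 CPM in low-flow and to 67674 to 81521 CPM in native vessels, and all 21 members tested had counts in each of the 4 libraries, as had all 19 endothelial genes tested. The Y-linked genes EIF1AY and KDM5D together reached 0.0428 and 0 CPM in low-flow and 37.5 and 37.7 CPM in native vessels. They were at 0 in both stented static libraries and at 21.1 to 46.8 CPM in every stented high-flow and high-flow library. Low-flow and stented static therefore stand apart from the other 7 libraries by these genes. The sex of the animals is not given in the labels, and a difference between animals cannot be told apart from a difference between low-flow and native or high-flow vessels. Cardiac muscle markers stood apart in native replicate 1, at a sum of 2270.2 CPM, against 747 CPM in native replicate 2.

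Genes were tested with edgeR's quasi-likelihood F-test in 1 fit of all 11 libraries and called at a Benjamini-Hochberg adjusted p under 0.05. Between low-flow and native vessels 1904 of the 15348 genes tested were called, 12.4%. Of these, 772 genes (5.03%) were higher and 1132 genes (7.38%) were lower in low-flow, while the median log2 fold change over all genes tested was -0.00. The unadjusted p was under 0.05 for 4410 genes. The counts rest on both libraries of each group. Without low-flow replicate 1 the test called 361 genes, without low-flow replicate 2 it called 405, without native replicate 1 it called 514 and without native replicate 2 it called 556. In each of these fits a group is left with 1 library, which is assumed to vary like the other groups. The call held without each of the 4 libraries in turn for 242 genes, 98 of them higher and 144 lower. Below, a call is said to have held where it passed in all 4 of those fits. Between the libraries of a group the median absolute log2 difference of a gene was 0.298 in low-flow and 0.307 in native vessels.

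**Figure D1:**
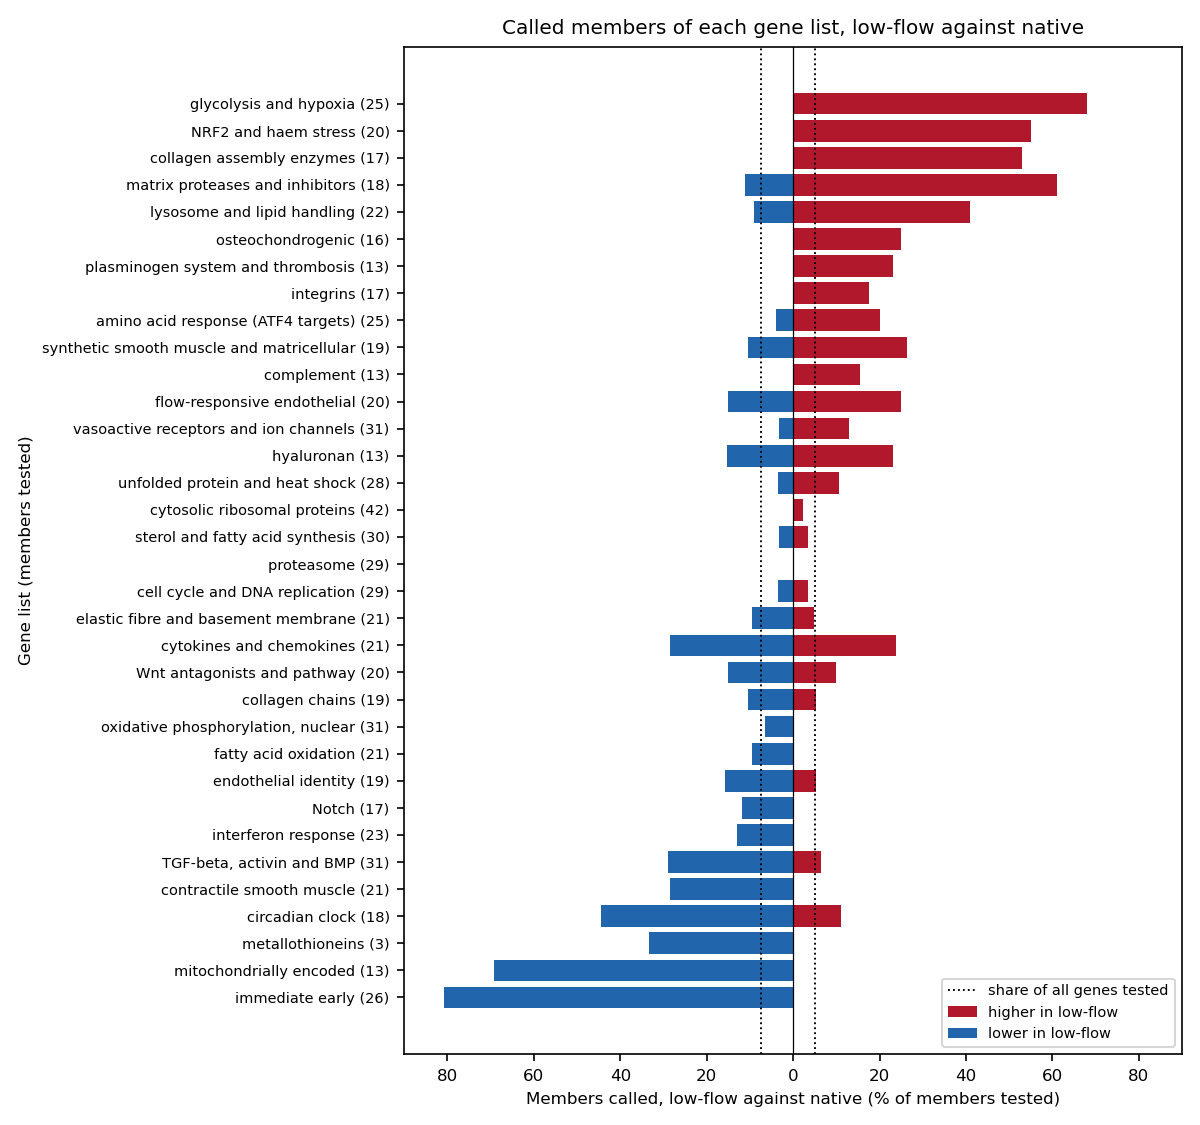
Share of the tested members of each of 34 gene lists that were called in low-flow against native, in percent of the members tested, with higher genes to the right, lower genes to the left and the number tested in brackets. Dotted lines mark the shares over all genes tested, 5.03% higher and 7.38% lower. Glycolysis and hypoxia genes lie at the top, all of whose called members were higher, and immediate early genes at the bottom, all of whose called members were lower. Lists and members were chosen with earlier results of these data known. The distance of a bar from the dotted lines may therefore partly reflect that choice.

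Immediate early genes, the transcription factors and phosphatases that cells induce within minutes of a stimulus, were the list with the most genes lower in low-flow. Of 26 members tested, 21 were called lower and 0 higher, with a median log2 fold change of -3.25. The immediate early count of lower members was 13 without low-flow replicate 1, 14 without low-flow replicate 2, 15 without native replicate 1 and 16 without native replicate 2. FOSB, a subunit of the AP-1 transcription factor (chromosome 6, 51836780 to 51844531, Sscrofa11.1), had 3.00 and 1.12 CPM in low-flow and 1374 and 753 CPM in native vessels. The lowest native library exceeded the highest low-flow library by more than 2 orders of magnitude. Its log2 fold change was -9.02 ± 1.06 (edgeR adjusted p = 0.000814), and the call held. FOS, a further Fos-family subunit of AP-1, had 18.3 and 21.3 CPM in low-flow and 3205 and 3394 CPM in native vessels, a log2 fold change of -7.38 ± 0.91 (edgeR adjusted p = 0.000966). EGR1, a zinc finger factor (chromosome 2, 140440829 to 140445302), had 70.7 and 125 CPM in low-flow and 7611 and 8459 CPM in native vessels. Native vessels thus carried EGR1 among their abundant transcripts, and both low-flow libraries lay far below them, with a log2 fold change of -6.36 ± 0.63 (edgeR adjusted p = 0.000374). The orphan nuclear receptors NR4A1, NR4A2 and NR4A3 fell together, by log2 fold changes of -6.63 ± 0.57, -3.28 ± 0.30 and -5.59 ± 0.56. NR4A1 had 17.2 and 20.7 CPM in low-flow and 2273 and 1475 CPM in native vessels. The same held for ATF3, a stress-induced factor of the CREB family, with 19.6 and 14.4 CPM in low-flow and 375 and 334 CPM in native vessels. JUN (log2 fold change -3.44 ± 0.49), IER2 (-3.98 ± 0.38) and the phosphatase DUSP1 (-3.21 ± 0.46) fell as well. The calls of FOS, EGR1, NR4A1, NR4A2, NR4A3, ATF3, JUN, IER2 and DUSP1 all held.

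**Figure D2:**
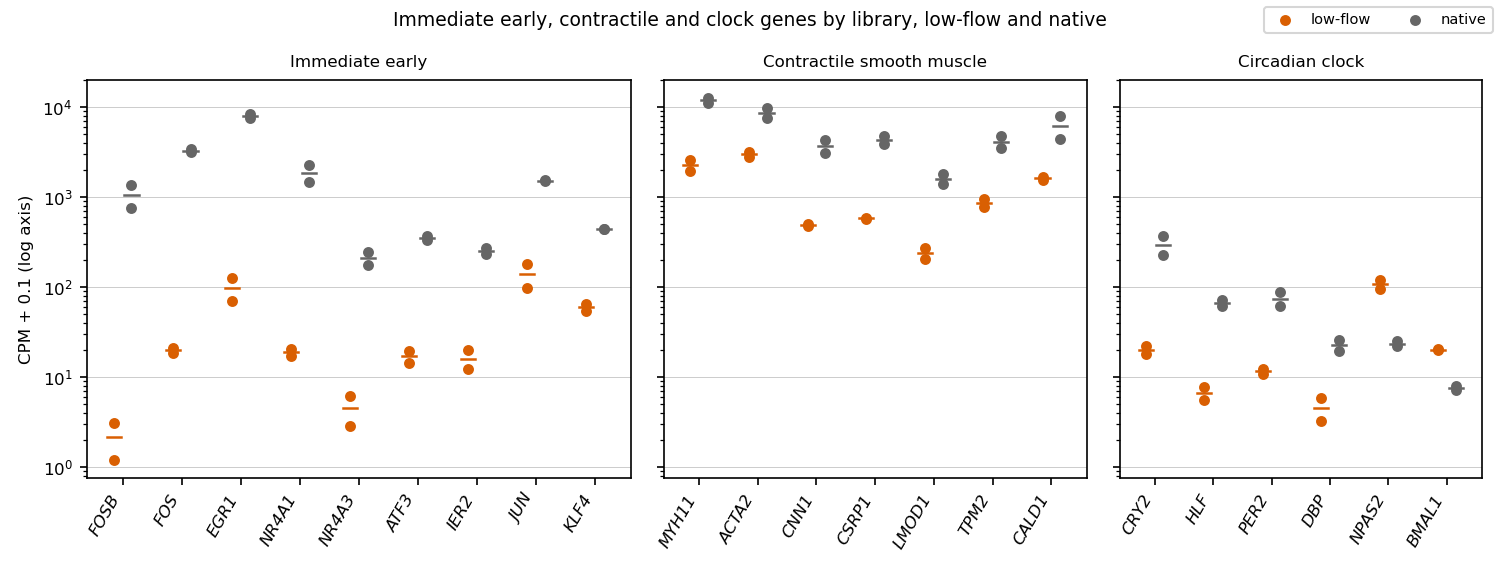
CPM + 0.1 on a log axis for immediate early, contractile smooth muscle and circadian clock genes in the low-flow (left of each pair) and native libraries, with 1 point per library and a bar at the mean of the 2 libraries. The groups do not overlap in any gene shown; low-flow lies below native except in the clock genes NPAS2 and BMAL1, and MYH11, ACTA2 and CNN1 did not pass the test.

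Contractile smooth muscle genes were lower in low-flow, yet most of them did not pass the test. Of 21 tested, 6 were called lower (CSRP1, LMOD1, TPM2, CALD1, SMTN and FLNA) and 0 higher, the median log2 fold change was -1.77, and 20 of the 21 had a negative log2 fold change. The contractile smooth muscle count of lower members was 0 without low-flow replicate 1, 0 without low-flow replicate 2, 1 without native replicate 1 and 1 without native replicate 2. In a fit of the 4 libraries alone, which takes the spread from these 2 groups, 18 members were called lower, and DESeq2 called 11. MYH11, the smooth muscle myosin heavy chain (chromosome 3, 7002667 to 7143093), had 1944 and 2568 CPM in low-flow and 11137 and 12614 CPM in native vessels. The groups do not overlap, but the log2 fold change of -2.40 ± 1.12 did not pass the joint test (edgeR adjusted p = 0.187), and the edgeR adjusted p was 0.000124 in the fit of the 4 libraries alone. ACTA2, smooth muscle actin, had 3168 and 2793 CPM in low-flow and 7661 and 9667 CPM in native vessels, with a log2 fold change of -1.54 ± 0.86 (edgeR adjusted p = 0.269). CNN1, calponin, had 505 and 473 CPM in low-flow and 3067 and 4319 CPM in native vessels, with a log2 fold change of -2.92 ± 0.93 (edgeR adjusted p = 0.0648). Groups separated like these were common: the low-flow and native libraries did not overlap for 67.9% of all genes tested. CSRP1, a LIM protein of smooth muscle, was the called member with the largest fall, with 588 and 577 CPM in low-flow and 3853 and 4753 CPM in native vessels and a log2 fold change of -2.88 ± 0.49 (edgeR adjusted p = 0.00468); the CSRP1 call was lost without low-flow replicate 1 (edgeR adjusted p = 0.0602) and without low-flow replicate 2 (edgeR adjusted p = 0.0609). The thin filament genes TPM2, LMOD1 and CALD1 had log2 fold changes of -2.27 ± 0.63, -2.75 ± 0.79 and -1.92 ± 0.51, and each of the 3 calls was lost without any 1 of the 4 libraries (edgeR adjusted p up to 0.219, 0.245 and 0.209).

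Genes of the synthetic state were mixed. Of 19 tested, 5 were called higher (SPP1, LGALS3, FN1, S100A4 and VCAN) and 2 lower (KRT8 and CCN1), with a median log2 fold change of 0.30. The synthetic-state count of higher members was 3 without low-flow replicate 1, 4 without low-flow replicate 2, 2 without native replicate 1 and 2 without native replicate 2. SPP1, osteopontin (chromosome 8, 131077786 to 131085334), had 213 and 354 CPM in low-flow and 11.2 and 12.02 CPM in native vessels, a log2 fold change of 4.61 ± 0.62 (edgeR adjusted p = 0.00158). LGALS3, galectin-3, had 239.7 and 199.6 CPM in low-flow and 10.3 and 11.7 CPM in native vessels, a log2 fold change of 4.32 ± 0.47 (edgeR adjusted p = 0.000574). Both calls held. FN1, fibronectin, was the most abundant of the risen members, with 19635 and 20909 CPM in low-flow and 1495 and 1449 CPM in native vessels. Its log2 fold change was 3.78 ± 0.70 (edgeR adjusted p = 0.00767), but the FN1 call was lost without native replicate 1 (edgeR adjusted p = 0.0736) and without native replicate 2 (edgeR adjusted p = 0.0731). KRT8, an epithelial-type keratin also found in dedifferentiating smooth muscle, had 0.557 and 0.175 CPM in low-flow and 33.3 and 35.1 CPM in native vessels, with a log2 fold change of -6.55 ± 1.02 (edgeR adjusted p = 0.00319); the KRT8 call was lost without low-flow replicate 2 (edgeR adjusted p = 0.0513).

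Glycolysis and hypoxia genes rose as a list. Of 25 tested, 17 were called higher and 0 lower, with a median log2 fold change of 1.97. The glycolysis and hypoxia count of higher members was 11 without low-flow replicate 1, 11 without low-flow replicate 2, 10 without native replicate 1 and 10 without native replicate 2. LDHA, the lactate dehydrogenase subunit that turns pyruvate into lactate (chromosome 2, 40814163 to 40827284), had 895 and 793 CPM in low-flow and 54.5 and 76.4 CPM in native vessels, a log2 fold change of 3.69 ± 0.42 (edgeR adjusted p = 0.000737). SLC16A3, which exports lactate from the cell, had 64.5 and 80.7 CPM in low-flow and 1.24 and 0.288 CPM in native vessels, a log2 fold change of 6.59 ± 0.82 (edgeR adjusted p = 0.00105). Both low-flow libraries exceeded the higher native library by more than an order of magnitude for each of these genes. Enzymes of the upper and lower pathway rose with them: the hexokinases HK1 (log2 fold change 2.33 ± 0.29) and HK2 (3.06 ± 0.49), glucose phosphate isomerase GPI (1.97 ± 0.31), enolase ENO1 (2.68 ± 0.42) and pyruvate kinase PKM (2.32 ± 0.34). PKM had 2225 and 2236 CPM in low-flow and 432 and 458 CPM in native vessels, and the low-flow libraries differed from each other by less than either differed from a native library. NDUFA4L2, a hypoxia-induced relative of a respiratory chain subunit, had 337 and 334 CPM in low-flow and 12.1 and 6.50 CPM in native vessels (log2 fold change 5.17 ± 0.61). CA12, a membrane carbonic anhydrase that buffers acid (chromosome 1, 108649277 to 108710658), had 153 and 133 CPM in low-flow and 3.84 and 4.83 CPM in native vessels, a log2 fold change of 5.04 ± 0.35 (edgeR adjusted p = 0.000122). The calls of LDHA, SLC16A3, HK1, HK2, GPI, ENO1, PKM, NDUFA4L2 and CA12 all held.

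**Figure D3:**
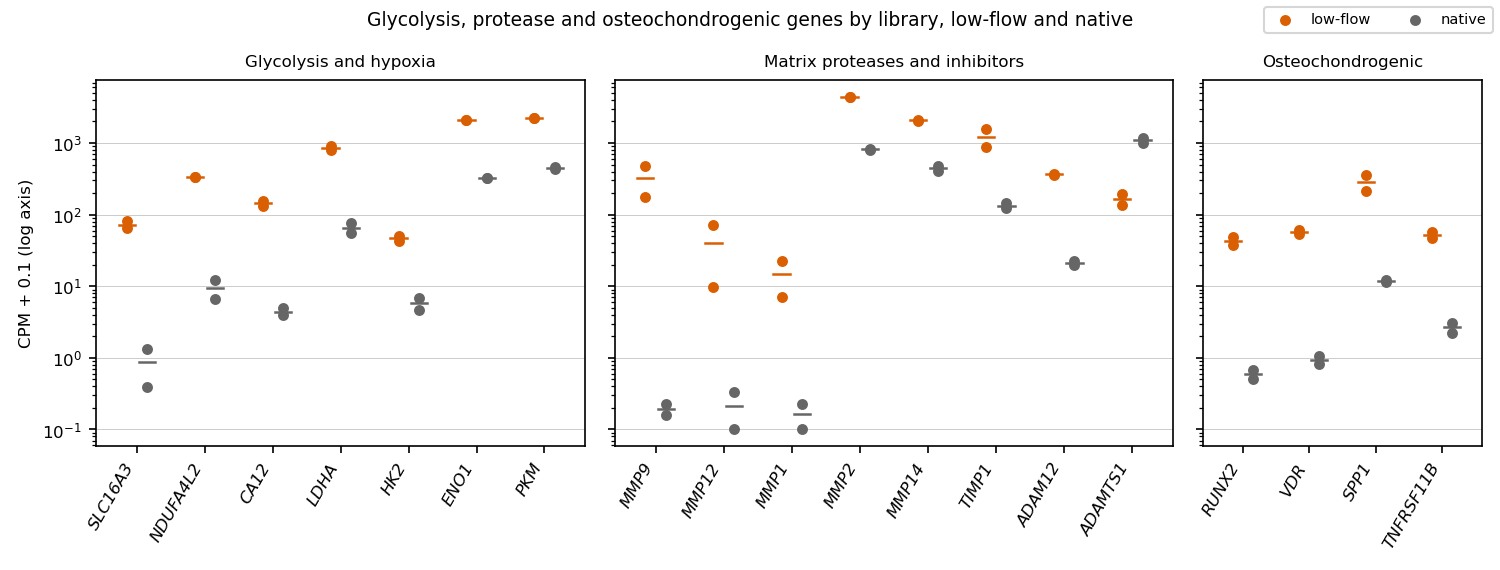
CPM + 0.1 on a log axis for glycolysis and hypoxia, matrix protease and osteochondrogenic genes in the low-flow (left of each pair) and native libraries, with 1 point per library and a bar at the mean of the 2 libraries. Low-flow lies above native in every gene shown except ADAMTS1, and MMP9 reaches 178 and 480.0 CPM in low-flow, against 0.130 and 0.0575 CPM in native vessels.

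Mitochondrially encoded transcripts were lower. All 13 were tested, 9 were called lower and 0 higher, and the median log2 fold change was -1.85. The mitochondrially encoded count of lower members was 3 without low-flow replicate 1, 2 without low-flow replicate 2, 4 without native replicate 1 and 3 without native replicate 2. CYTB, cytochrome b of complex III, had 1147 and 858 CPM in low-flow and 10587 and 9466 CPM in native vessels, a log2 fold change of -3.32 ± 0.42 (edgeR adjusted p = 0.00119). ND3, a complex I subunit, had 363 and 292 CPM in low-flow and 1339 and 1828 CPM in native vessels, a log2 fold change of -2.27 ± 0.33 (edgeR adjusted p = 0.00212). Both calls held, and these transcripts took 5.51% and 4.23% of the low-flow counts, against 10.3% and 10.7% of the native counts. Nuclear genes of oxidative phosphorylation moved little by comparison: 2 of 31 tested were called lower (COX7A1 and NDUFA4) and 0 higher, with a median log2 fold change of -0.32. Fatty acid oxidation gave 2 lower (ACAA2 and CPT2) and 0 higher of 21, with a median of -0.22. Over all genes tested, 7.38% were called lower. Leaving the mitochondrially encoded genes out of the fit gave 1895 called genes.

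Several matrix proteases rose in low-flow, and their inhibitors TIMP1 and TIMP4 changed in opposite directions. Of 18 proteases and inhibitors tested, 11 were called higher and 2 lower (ADAMTS1 and TIMP4), with a median log2 fold change of 2.33. The matrix proteases and inhibitors count of higher members was 6 without low-flow replicate 1, 5 without low-flow replicate 2, 4 without native replicate 1 and 5 without native replicate 2. MMP9, gelatinase B (chromosome 17, 48179690 to 48186782), had 178 and 480.0 CPM in low-flow and 0.130 and 0.0575 CPM in native vessels. The native libraries held 3 reads between them, against 17897 in the low-flow libraries, a ratio of 3759 with a 95% counting interval of 1286 to 18231. The edgeR adjusted p was 0.000261, and the call held. MMP12, the macrophage elastase, had 9.55 and 70.6 CPM in low-flow and 0 and 0.230 CPM in native vessels, so low-flow replicate 2 stood well above low-flow replicate 1. The MMP12 call (edgeR adjusted p = 0.00475) was lost without native replicate 1 (edgeR adjusted p = 0.0531). MMP1, interstitial collagenase, had 6.94 and 22.7 CPM in low-flow and 0.130 and 0 CPM in native vessels, where 2 native reads give a ratio of 255 with a 95% counting interval of 70.4 to 2111. Its call was lost without any 1 of the 4 libraries (edgeR adjusted p up to 0.168). Gelatinase A, MMP2, and the membrane protease MMP14 were abundant in both groups. MMP2 had 4339 and 4446 CPM in low-flow and 811 and 838 CPM in native vessels and MMP14 had 2056 and 2090.3 CPM in low-flow and 412 and 474 CPM in native vessels, log2 fold changes of 2.41 ± 0.49 and 2.23 ± 0.36. The MMP2 call was lost without any 1 of the 4 libraries (edgeR adjusted p 0.0624 to 0.0993), and the MMP14 call was lost without native replicate 1 (edgeR adjusted p = 0.0522). ADAM12, a membrane metalloprotease, had 374 and 357 CPM in low-flow and 22.3 and 19.8 CPM in native vessels, a log2 fold change of 4.12 ± 0.64 (edgeR adjusted p = 0.00299). TIMP1, an inhibitor of these enzymes, rose as well, with 871 and 1548 CPM in low-flow and 122 and 145 CPM in native vessels and a log2 fold change of 3.17 ± 0.41 (edgeR adjusted p = 0.00139). ADAMTS1, an aggrecan- and versican-cleaving protease, went the other way, with 195 and 137 CPM in low-flow and 1192 and 1003 CPM in native vessels and a log2 fold change of -2.72 ± 0.44 (edgeR adjusted p = 0.00377). The calls of ADAM12 and TIMP1 held, and the ADAMTS1 call was lost without low-flow replicate 2 (edgeR adjusted p = 0.0615).

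The plasminogen system is the other extracellular protease cascade of the wall. Of 13 members tested, 3 were called higher and 0 lower, with a median log2 fold change of 1.01. The plasminogen count of higher members was 2 without low-flow replicate 1, 2 without low-flow replicate 2, 1 without native replicate 1 and 2 without native replicate 2. The urokinase receptor PLAUR had 75.1 and 85.7 CPM in low-flow and 12.05 and 10.2 CPM in native vessels, a log2 fold change of 2.85 ± 0.41 (edgeR adjusted p = 0.00211), and its call held. Urokinase itself, PLAU, had 129 and 87.2 CPM in low-flow and 36.1 and 29.3 CPM in native vessels. Its call (edgeR adjusted p = 0.0294) was lost without any 1 of the 4 libraries, with an edgeR adjusted p of up to 0.187.

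Few collagen chains were called, and in both directions, whereas 9 of the 17 enzymes that hydroxylate and cross-link collagen were called higher. Of 19 chains tested, 1 was called higher (COL6A3) and 2 lower (COL8A2 and COL18A1), with a median log2 fold change of 0.12, and no chain was called without any 1 of the 4 libraries. The unadjusted p was under 0.05 for 9 of the 19 chains, and DESeq2 called 4 higher and 3 lower. The fit of the 4 libraries alone called 8 chains higher and 5 lower. COL1A1, the main fibrillar chain, had 24939 and 25428 CPM in low-flow and 20529 and 26006 CPM in native vessels. The groups overlap, with a log2 fold change of 0.11 ± 0.57 (edgeR adjusted p = 0.923) that became -0.054 without native replicate 1. Of 17 assembly enzymes tested, 9 were called higher and 0 lower, with a median log2 fold change of 1.43, among them the lysyl oxidases LOXL2 and LOXL4, the prolyl hydroxylases P4HA1, P4HA2 and P4HA3 and the lysyl hydroxylases PLOD1, PLOD2 and PLOD3. The collagen assembly enzymes count of higher members was 1 without low-flow replicate 1, 4 without low-flow replicate 2, 0 without native replicate 1 and 1 without native replicate 2. LOXL2 had 396 and 385 CPM in low-flow and 58.1 and 51.0 CPM in native vessels, a log2 fold change of 2.84 ± 0.51 (edgeR adjusted p = 0.00670). The LOXL2 call was lost without native replicate 1 (edgeR adjusted p = 0.0667) and without native replicate 2 (edgeR adjusted p = 0.0733). Elastic fibre and basement membrane genes gave 1 higher (NID2) and 2 lower (MFAP5 and ELN) of 21 tested, with a median of 0.07. ELN, the elastin gene, had 1587 and 945 CPM in low-flow and 4730.3 and 5307 CPM in native vessels, a log2 fold change of -1.99 ± 0.51 (edgeR adjusted p = 0.0281), and the call was lost without any 1 of the 4 libraries (edgeR adjusted p up to 0.1996).

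Receptors and glycans of the matrix changed in a few members. Of 17 integrins tested, 3 were called higher and 0 lower, with a median log2 fold change of 0.43. ITGA5, the fibronectin receptor subunit, had 1202 and 1125 CPM in low-flow and 147 and 180.3 CPM in native vessels, a log2 fold change of 2.83 ± 0.30 (edgeR adjusted p = 0.000505). ITGA10, a collagen receptor subunit, had 45.2 and 50.1 CPM in low-flow and 11.3 and 8.97 CPM in native vessels, a log2 fold change of 2.23 ± 0.30 (edgeR adjusted p = 0.00151). Both calls held, while that of ITGA2 (edgeR adjusted p = 0.0194) did not; the ITGA2 call was lost without low-flow replicate 1 (edgeR adjusted p = 0.146), without native replicate 1 (edgeR adjusted p = 0.0502) and without native replicate 2 (edgeR adjusted p = 0.142). In the hyaluronan list 3 of 13 tested were called higher and 2 lower, with a median of 0.39. CEMIP, which depolymerises hyaluronan, had 66.4 and 34.9 CPM in low-flow and 0.977 and 0.863 CPM in native vessels, a log2 fold change of 5.78 ± 0.53 (edgeR adjusted p = 0.000261), and its call held. HAPLN4, a hyaluronan link protein and no member of that list, was among the 12 largest rises, with 61.1 and 52.7 CPM in low-flow and 1.69 and 1.84 CPM in native vessels and a log2 fold change of 5.003 ± 0.68 (edgeR adjusted p = 0.00172), and its call held as well.

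Osteochondrogenic genes, which smooth muscle can switch on in calcifying arteries, gave 4 higher (RUNX2, VDR, SPP1 and TNFRSF11B) and 0 lower of 16 tested, with a median log2 fold change of 0.37. The osteochondrogenic count of higher members was 3 without low-flow replicate 1, 3 without low-flow replicate 2, 3 without native replicate 1 and 3 without native replicate 2. RUNX2, the bone lineage transcription factor (chromosome 7, 40106581 to 40353304), had 38.1 and 47.9 CPM in low-flow and 0.586 and 0.403 CPM in native vessels. VDR, the vitamin D receptor (chromosome 5, 78205807 to 78266505), had 53.0 and 61.7 CPM in low-flow and 0.716 and 0.978 CPM in native vessels. Both genes were close to absent in native vessels and clearly present in both low-flow libraries. Their log2 fold changes were 6.43 ± 0.59 (edgeR adjusted p = 0.000261) and 6.06 ± 0.43 (edgeR adjusted p = 0.000122), and both calls held. TNFRSF11B, osteoprotegerin, had 47.6 and 57.4 CPM in low-flow and 2.15 and 2.99 CPM in native vessels, but its call (edgeR adjusted p = 0.0130) was lost without any 1 of the 4 libraries (edgeR adjusted p up to 0.109). The other 12 members tested did not pass the test, and 6 of the 16 log2 fold changes were negative. The list summed to 2150 to 2563 CPM in low-flow and to 4474 to 5405 CPM in native vessels.

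Several feedback inhibitors and targets of TGF-beta and BMP signalling fell. Of 31 members tested, 9 were called lower and 2 higher, among them ENG, with a median log2 fold change of -0.40. The TGF-beta and BMP count of lower members was 3 without low-flow replicate 1, 5 without low-flow replicate 2, 7 without native replicate 1 and 5 without native replicate 2. ID2, a BMP target that blocks helix-loop-helix factors, had 36.4 and 31.9 CPM in low-flow and 201 and 319.5 CPM in native vessels, a log2 fold change of -2.93 ± 0.31 (edgeR adjusted p = 0.000521). SMAD7, the inhibitory SMAD, had 24.5 and 30.4 CPM in low-flow and 123 and 139 CPM in native vessels, a log2 fold change of -2.25 ± 0.31 (edgeR adjusted p = 0.00181). Both calls held. The ligand TGFB3 had 75.6 and 59.8 CPM in low-flow and 328 and 421 CPM in native vessels (log2 fold change -2.47 ± 0.50, edgeR adjusted p = 0.0108); the TGFB3 call was lost without low-flow replicate 1 (edgeR adjusted p = 0.0829), without low-flow replicate 2 (edgeR adjusted p = 0.106) and without native replicate 2 (edgeR adjusted p = 0.0722). Among Wnt genes 2 of 20 tested were called higher and 3 lower, with a median of -0.85, and secreted Wnt antagonists moved in opposite directions. SFRP2 had 183 and 303 CPM in low-flow and 0.977 and 2.24 CPM in native vessels, whereas SFRP4 had 2.44 and 2.13 CPM in low-flow and 85.5 and 113 CPM in native vessels. Their log2 fold changes were 7.22 ± 0.96 (edgeR adjusted p = 0.00152) and -5.44 ± 0.45 (edgeR adjusted p = 0.000247), and both calls held. WIF1, a further Wnt inhibitor, had 32.8 and 51.1 CPM in low-flow and 939 and 1379.7 CPM in native vessels, a log2 fold change of -4.79 ± 0.87 (edgeR adjusted p = 0.00693); the WIF1 call was lost without low-flow replicate 1 (edgeR adjusted p = 0.0860) and without low-flow replicate 2 (edgeR adjusted p = 0.0628). In the Notch list 2 of 17 tested were called lower and 0 higher, the target genes HES1 and HES4 (log2 fold changes -2.95 ± 0.52 and -1.53 ± 0.38), with a list median of -0.53. The HES1 call was lost without low-flow replicate 1 (edgeR adjusted p = 0.0784) and without low-flow replicate 2 (edgeR adjusted p = 0.0558), and the HES4 call was lost without any 1 of the 4 libraries (edgeR adjusted p 0.103 to 0.193).

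Few endothelial genes passed the joint test, although 14 of the 19 tested had a negative log2 fold change. DESeq2 called 4 lower and 1 higher, and the fit of the 4 libraries alone called 8 lower and 1 higher. Of 19 tested, 1 was called higher (ENG) and 3 lower (KDR, EMCN and ROBO4), with a median log2 fold change of -0.60, and no member was called without any 1 of the 4 libraries. PECAM1, the endothelial adhesion molecule CD31, had 249 and 347 CPM in low-flow and 388 and 489 CPM in native vessels, a log2 fold change of -0.56 ± 0.42 (edgeR adjusted p = 0.426). NOS3, endothelial nitric oxide synthase, had 34.0 and 60.4 CPM in low-flow and 28.8 and 35.8 CPM in native vessels, a log2 fold change of 0.55 ± 0.64 (edgeR adjusted p = 0.621). Neither gene passed the test, and for NOS3 the groups overlap. KDR, the main VEGF receptor, had 12.8 and 14.6 CPM in low-flow and 82.2 and 71.2 CPM in native vessels, a log2 fold change of -2.48 ± 0.58 (edgeR adjusted p = 0.0200), with an edgeR adjusted p of up to 0.150 when a library was left out. Of 20 flow-responsive genes tested, 5 were called higher (CYP1A1, HMOX1, CYP1B1, CCL2 and NQO1) and 3 lower (KLF4, KLF2 and PTGIS), with a median of -0.04. The flow-responsive count of higher members was 2 without low-flow replicate 1, 3 without low-flow replicate 2, 1 without native replicate 1 and 1 without native replicate 2, and 1 was called lower in each of these fits. KLF2 had 45.5 and 76.6 CPM in low-flow and 337 and 354 CPM in native vessels, a log2 fold change of -2.50 ± 0.52 (edgeR adjusted p = 0.0118). Its call was lost without any 1 of the 4 libraries, with an edgeR adjusted p of up to 0.124. KLF4 had 64.5 and 54.8 CPM in low-flow and 449 and 438 CPM in native vessels, a log2 fold change of -2.89 ± 0.35 (edgeR adjusted p = 0.000966), and the call held. KLF4 also stands in the immediate early list. CYP1A1, a cytochrome P450 induced by the aryl hydrocarbon receptor and by shear, had 35.1 and 65.3 CPM in low-flow and 0.130 and 0.403 CPM in native vessels. Both low-flow libraries lie far above native, with a log2 fold change of 7.49 ± 1.45 (edgeR adjusted p = 0.00945); the CYP1A1 call was lost without native replicate 1 (edgeR adjusted p = 0.0900) and without native replicate 2 (edgeR adjusted p = 0.0704).

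Among vasoactive receptors and ion channels, 4 of 31 tested were called higher (ABCC9, EDNRA, HTR2A and PTGFR) and 1 lower (PTGER4), with a median log2 fold change of -0.67. Over all genes tested, 5.03% were called higher and 7.38% lower. Of the 31 log2 fold changes, 21 were negative and 10 positive. DESeq2 called 4 members higher and 2 lower, and the fit of the 4 libraries alone called 5 higher and 13 lower. The vasoactive count of higher members was 1 without low-flow replicate 1, 1 without low-flow replicate 2, 1 without native replicate 1 and 0 without native replicate 2. ABCC9, the sulfonylurea receptor subunit of vascular potassium channels, had 274 and 211 CPM in low-flow and 34.1 and 17.0 CPM in native vessels, a log2 fold change of 3.25 ± 0.58 (edgeR adjusted p = 0.00638); the ABCC9 call was lost without native replicate 2 (edgeR adjusted p = 0.0655). EDNRA, the endothelin receptor of smooth muscle, had 231.8 and 357 CPM in low-flow and 38.7 and 40.7 CPM in native vessels, a log2 fold change of 2.89 ± 0.75 (edgeR adjusted p = 0.0296). The calls of EDNRA, HTR2A and PTGFR were each lost without any 1 of the 4 libraries (edgeR adjusted p up to 0.161, 0.202 and 0.199). APLNR, the apelin receptor and no member of the list, was among the 12 largest falls, with 0.771 and 0.629 CPM in low-flow and 104 and 111 CPM in native vessels and a log2 fold change of -7.25 ± 0.62 (edgeR adjusted p = 0.000247), and its call held.

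Chemokines moved in both directions. Of 21 cytokines and chemokines tested, 5 were called higher and 6 lower, with a median log2 fold change of 0.51. The chemokine and cytokine count of higher members was 3 without low-flow replicate 1, 2 without low-flow replicate 2, 1 without native replicate 1 and 3 without native replicate 2. The chemokine and cytokine count of lower members was 2 without low-flow replicate 1, 3 without low-flow replicate 2, 3 without native replicate 1 and 4 without native replicate 2. CXCL14 had 292 and 368 CPM in low-flow and 10.9 and 11.3 CPM in native vessels, a log2 fold change of 4.89 ± 0.64 (edgeR adjusted p = 0.00145). CXCL2, a neutrophil attractant, had 2.78 and 7.76 CPM in low-flow and 278 and 361 CPM in native vessels, a log2 fold change of -5.91 ± 0.77 (edgeR adjusted p = 0.00139). The interferon-induced T cell attractant CXCL9 had 0.0428 and 0.0350 CPM in low-flow and 4.04 and 7.88 CPM in native vessels, and its 2 low-flow reads against 199 native reads give a level 158-fold higher in native, with a 95% counting interval of 43.1 to 1313. All 3 calls held. CXCL8, interleukin-8, had 5.82 and 15.8 CPM in low-flow and 0.130 and 0.748 CPM in native vessels (log2 fold change 4.58 ± 0.95, edgeR adjusted p = 0.0121); the CXCL8 call was lost without low-flow replicate 2 (edgeR adjusted p = 0.0795) and without native replicate 1 (edgeR adjusted p = 0.103). IL6 had 3.13 and 2.06 CPM in low-flow and 23.3 and 31.1 CPM in native vessels, a log2 fold change of -3.39 ± 0.75 (edgeR adjusted p = 0.0156) whose call was lost without any 1 of the 4 libraries (edgeR adjusted p up to 0.134). Of 23 interferon response genes tested, 3 were called lower (IRF1, GBP1 and GBP2) and 0 higher, with a median of -0.24. IRF1, a transcription factor of that response, had 15.2 and 23.7 CPM in low-flow and 173 and 98.5 CPM in native vessels, a log2 fold change of -2.80 ± 0.41 (edgeR adjusted p = 0.00245), and its call held. The GBP1 call was lost without low-flow replicate 1 (edgeR adjusted p = 0.0519), and the GBP2 call was lost without any 1 of the 4 libraries (edgeR adjusted p 0.136 to 0.232). In the complement list 2 of 13 tested were called higher, CFB and C7, and 0 lower, with a median of 0.36. The CFB call was lost without low-flow replicate 1 (edgeR adjusted p = 0.0832), without native replicate 1 (edgeR adjusted p = 0.0775) and without native replicate 2 (edgeR adjusted p = 0.0893), and the C7 call was lost without native replicate 2 (edgeR adjusted p = 0.0614).

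Circadian clock genes changed in both directions. Of 18 tested, 8 were called lower and 2 higher, with a median log2 fold change of -1.40. The circadian clock count of lower members was 4 without low-flow replicate 1, 4 without low-flow replicate 2, 5 without native replicate 1 and 5 without native replicate 2. CRY2, a repressor of the clock (chromosome 2, 16587101 to 16620380), had 18.2 and 22.0 CPM in low-flow and 367 and 229 CPM in native vessels, a log2 fold change of -3.89 ± 0.34 (edgeR adjusted p = 0.000247). PER2, its partner in the repressor complex, had 10.7 and 12.3 CPM in low-flow and 87.3 and 62.1 CPM in native vessels, a log2 fold change of -2.69 ± 0.40 (edgeR adjusted p = 0.00245). The output factors HLF and DBP, which bind D-boxes, fell too, by -3.34 ± 0.50 and -2.34 ± 0.46 on the log2 scale. The activators NPAS2 and BMAL1 were higher. NPAS2 had 94.9 and 121 CPM in low-flow and 25.1 and 22.1 CPM in native vessels, a log2 fold change of 2.19 ± 0.32 (edgeR adjusted p = 0.00244), and BMAL1 had 20.3 and 20.2 CPM in low-flow and 7.03 and 7.82 CPM in native vessels, a log2 fold change of 1.44 ± 0.26 (edgeR adjusted p = 0.00688). The calls of CRY2, PER2, HLF and NPAS2 held, the DBP call was lost without low-flow replicate 1 (edgeR adjusted p = 0.110) and without native replicate 2 (edgeR adjusted p = 0.0752), and the BMAL1 call was lost without any 1 of the 4 libraries (edgeR adjusted p 0.0501 to 0.0757). The time of day at which the vessels were frozen is not given in the labels, and its part in these values was not tested.

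Antioxidant genes of the NRF2 programme were called in 1 direction, higher. Of 20 tested, 11 were called higher and 0 lower, with a median log2 fold change of 1.14. The NRF2 count of higher members was 3 without low-flow replicate 1, 1 without low-flow replicate 2, 1 without native replicate 1 and 1 without native replicate 2. HMOX1, haem oxygenase 1, had 103 and 128 CPM in low-flow and 14.9 and 10.8 CPM in native vessels, a log2 fold change of 3.17 ± 0.44 (edgeR adjusted p = 0.00187), and its call held. GCLC, the catalytic subunit of glutathione synthesis, had 28.3 and 33.9 CPM in low-flow and 6.64 and 6.79 CPM in native vessels, and NQO1, a quinone reductase, had 46.7 and 61.1 CPM in low-flow and 15.9 and 17.3 CPM in native vessels. The calls of GCLC and NQO1 (edgeR adjusted p = 0.0114 and 0.0252) were each lost without any 1 of the 4 libraries (edgeR adjusted p up to 0.0917 and 0.143). Of 25 ATF4 target genes of the amino acid response, 5 were called higher and 1 lower (ATF3), with a median of 0.94. The ATF4 target count of higher members was 2 without low-flow replicate 1, 2 without low-flow replicate 2, 2 without native replicate 1 and 2 without native replicate 2. SHMT2, the mitochondrial serine hydroxymethyltransferase, had 184 and 156 CPM in low-flow and 34.1 and 25.3 CPM in native vessels, a log2 fold change of 2.52 ± 0.32 (edgeR adjusted p = 0.00116), and its call held. The unfolded protein and heat shock list gave 3 higher (HYOU1, DNAJC3 and MANF) and 1 lower (BAG3) of 28 tested, with a median of 0.51 and 0 members called in either direction when a library was left out.

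Proteasome and ribosomal protein genes had few calls. Of 29 proteasome genes tested edgeR called 0, with a median log2 fold change of 0.07, 5 at an unadjusted p under 0.05 and 4 called by DESeq2, and of 42 cytosolic ribosomal protein genes 1 was called, RPS2 (higher), with a median of -0.12. Cell cycle and DNA replication genes gave 1 higher (TYMS) and 1 lower (CCND1) of 29 tested, although their median was 0.87 and 26 of the 29 log2 fold changes were positive. The unadjusted p was under 0.05 for 11 of the 29, DESeq2 called 6 higher and 1 lower, and the fit of the 4 libraries alone called 12 higher and 1 lower. TYMS, thymidylate synthase, had 14.7 and 18.9 CPM in low-flow and 2.47 and 2.19 CPM in native vessels, a log2 fold change of 2.85 ± 0.68 (edgeR adjusted p = 0.0223). Its call and that of CCND1 (edgeR adjusted p = 0.0489) were lost without any 1 of the 4 libraries (edgeR adjusted p up to 0.140 and 0.243). Sterol and fatty acid synthesis gave 1 higher (CYP51A1) and 1 lower (ELOVL6) of 30 tested, with a median of 0.40, while DESeq2 called 6 higher and 2 lower and the fit of the 4 libraries alone called 10 higher and 6 lower. Of 3 metallothioneins tested 1 was called, MT3 (lower), with a median of 0.21.

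Some macrophage markers and lysosomal genes rose in low-flow, beside 5.03% of all genes tested called higher and 7.38% called lower. Of 19 macrophage markers tested, 5 were called higher (GPNMB, MSR1, CD163, ITGAM and CD86) and 0 lower, with a median log2 fold change of 1.26. The macrophage-marker count of higher members was 3 without low-flow replicate 1, 3 without low-flow replicate 2, 2 without native replicate 1 and 2 without native replicate 2, DESeq2 called 9 and the fit of the 4 libraries alone called 12. The markers summed to 1560.5 to 1707 CPM in low-flow and to 615 to 628 CPM in native vessels. GPNMB, a lysosomal glycoprotein of phagocytes (chromosome 9, 92037428 to 92071501), had 570.2 and 452 CPM in low-flow and 4.88 and 5.64 CPM in native vessels, a log2 fold change of 6.60 ± 0.61 (edgeR adjusted p = 0.000261). MSR1, a scavenger receptor for modified lipoproteins, had 26.3 and 30.1 CPM in low-flow and 2.93 and 3.11 CPM in native vessels, a log2 fold change of 3.22 ± 0.36 (edgeR adjusted p = 0.000705). Both calls held. CD163, the haemoglobin scavenger receptor, had 354 and 356 CPM in low-flow and 55.2 and 46.1 CPM in native vessels (log2 fold change 2.81 ± 0.53, edgeR adjusted p = 0.00853); the CD163 call was lost without native replicate 1 (edgeR adjusted p = 0.0705) and without native replicate 2 (edgeR adjusted p = 0.0826). CD68, a general macrophage marker, had 50.0 and 89.4 CPM in low-flow and 20.5 and 21.4 CPM in native vessels and did not pass the test (edgeR adjusted p = 0.0548). Of 22 lysosome and lipid handling genes tested, 9 were called higher and 2 lower (LPL and ABCG1), with a median of 1.09. The lysosome and lipid count of higher members was 2 without low-flow replicate 1, 2 without low-flow replicate 2, 3 without native replicate 1 and 2 without native replicate 2. Some of the risen genes described above are also made by macrophages, among them SPP1, MMP9, MMP12, CHI3L1 and LGALS3, and the part of macrophage content in their values was not tested.

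**Figure D4:**
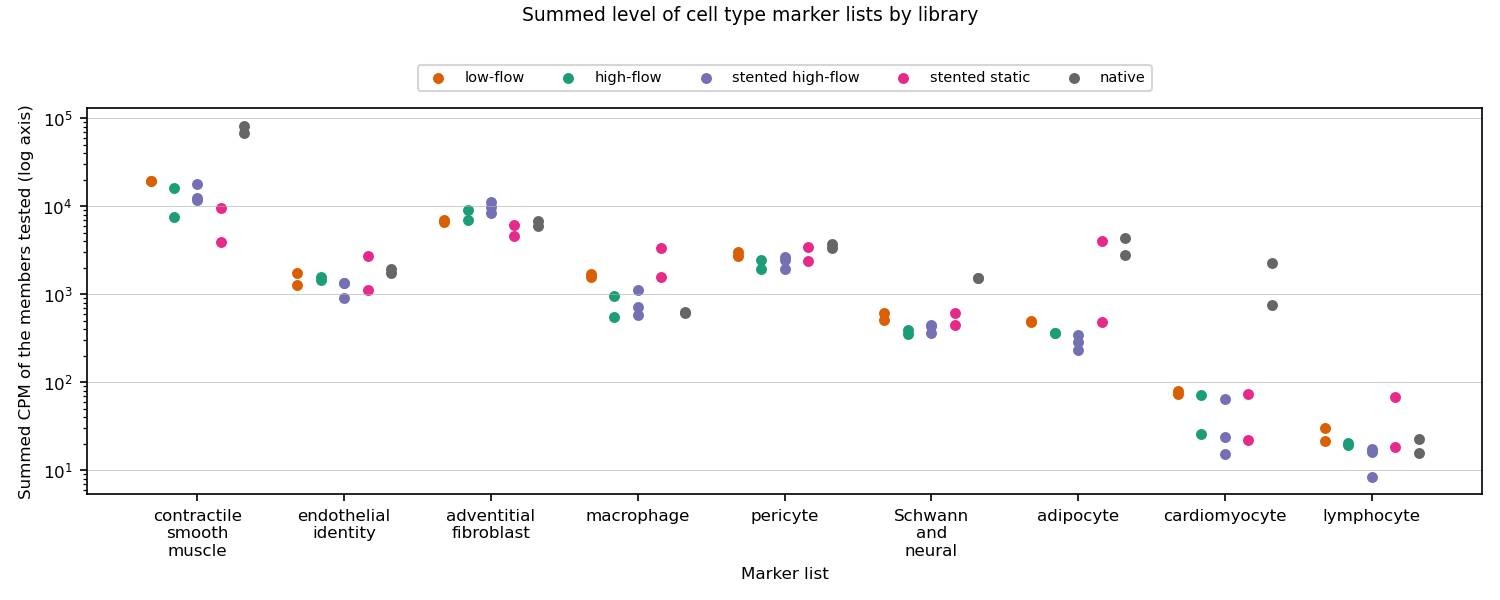
Summed CPM, on a log axis, of the tested members of 9 lists that mark cell types, for all 11 libraries in the order low-flow, high-flow, stented high-flow, stented static and native within each list, with 1 point per library. Low-flow lies below native for the contractile, pericyte, Schwann, adipocyte and cardiomyocyte lists and above native for the macrophage list.

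Adipocyte, Schwann and cardiomyocyte marker lists had members called lower and none called higher. Over all genes tested, 7.38% were called lower and 5.03% higher. Of 16 adipocyte markers tested, 4 were called lower (ACVR1C, LPL, PPARG and GPD1) and 0 higher, all 16 log2 fold changes were negative and the median was -2.98. Adipocyte markers summed to 484 to 498 CPM in low-flow and to 2767 to 4343 CPM in native vessels. PPARG, the master regulator of fat cells, had 2.95 and 4.82 CPM in low-flow and 42.4 and 29.7 CPM in native vessels, a log2 fold change of -3.21 ± 0.82 (edgeR adjusted p = 0.0289) that did not hold (edgeR adjusted p up to 0.201 with a library left out). Of 19 Schwann and neural markers, 9 were called lower and 0 higher, with a median of -1.14 and sums of 508 to 619 CPM in low-flow and 1537 to 1540.4 CPM in native vessels. The Schwann and neural-marker count of lower members was 1 without low-flow replicate 1, 2 without low-flow replicate 2, 3 without native replicate 1 and 2 without native replicate 2. PRX, periaxin of the myelin sheath, had 6.94 and 6.29 CPM in low-flow and 91.8 and 73.9 CPM in native vessels, a log2 fold change of -3.65 ± 0.32 (edgeR adjusted p = 0.000247), and its call held. MAG, a further myelin gene, had 0 reads in low-flow and 114 in native vessels, a level at least 60.3-fold lower in low-flow (bound at 3 reads over the 2 low-flow libraries). The MAG call (edgeR adjusted p = 0.0322) did not hold. Cardiomyocyte markers gave 7 lower and 0 higher of 10 tested. The cardiomyocyte-marker count of lower members was 0 without low-flow replicate 1, 0 without low-flow replicate 2, 1 without native replicate 1 and 6 without native replicate 2, and native replicate 1 carried most of their native level. MYH6, the atrial myosin heavy chain, had 0.171 and 0.0350 CPM in low-flow and 539 and 1.67 CPM in native vessels. Of 10 lymphocyte markers tested, 3 were called lower (CD3E, CD8A and CD2) and 0 higher. Their median log2 fold change was -2.30, with 7 log2 fold changes negative and 3 positive. The summed level, to which the most abundant members contribute most, was 21.4 to 30.2 CPM in low-flow and 15.6 to 22.8 CPM in native vessels. CD3E had 0 reads in low-flow and 64 in native vessels, at least 33.9-fold lower, and no call of this list held without any 1 of the 4 libraries. Of 5 erythrocyte and platelet markers tested, 1 was called higher (PPBP) and 1 lower (HBB), with a median log2 fold change of 0.23. HBB, beta globin of red cells, had 3 reads in low-flow and 1366 in native vessels. That is a level 723-fold higher in native, with a 95% counting interval of 246.7 to 3508. PPBP had 47 reads in low-flow and 0 in native vessels, and its call (edgeR adjusted p = 0.0152) did not hold. Of 8 neutrophil and mast cell markers tested, 1 was called lower (MS4A2) and 0 higher, with a median of 0.91 and 5 positive log2 fold changes. They summed to 59.6 to 61.7 CPM in low-flow and to 35.4 to 38.1 CPM in native vessels. The MS4A2 gene of mast cells had 0.385 and 0.0699 CPM in low-flow and 9.18 and 11.04 CPM in native vessels (log2 fold change -5.48 ± 1.07, edgeR adjusted p = 0.00981); the MS4A2 call was lost without low-flow replicate 1 (edgeR adjusted p = 0.0512), without low-flow replicate 2 (edgeR adjusted p = 0.0969) and without native replicate 2 (edgeR adjusted p = 0.0547).

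Adventitial fibroblast and pericyte markers were called in both directions, beside shares of 5.03% higher and 7.38% lower over all genes tested. Of 18 adventitial fibroblast markers, 3 were called higher (SFRP2, PDGFRA and CLU) and 4 lower (SFRP4, PI16, MFAP5 and PODN), with a median log2 fold change of -1.09. Of the 18 log2 fold changes, 13 were negative and 5 positive. DESeq2 called 3 higher and 6 lower, and the fit of the 4 libraries alone called 4 higher and 12 lower. The sums were nearly equal, at 6590 to 7034 CPM in low-flow and 5996 to 6724 CPM in native vessels. PI16, a marker of adventitial progenitor-like fibroblasts, had 6.42 and 12.8 CPM in low-flow and 266 and 294 CPM in native vessels, a log2 fold change of -4.86 ± 0.41 (edgeR adjusted p = 0.000247), and its call held. Of 11 pericyte markers, 3 were called higher (NDUFA4L2, ANPEP and ABCC9) and 3 lower (RGS5, MCAM and HIGD1B), with a median of -0.83. For this list 7 log2 fold changes were negative and 4 positive. DESeq2 called 3 pericyte markers higher and 6 lower, and the fit of the 4 libraries alone called 3 higher and 7 lower. ANPEP, a membrane aminopeptidase, had 546 and 801 CPM in low-flow and 39.4 and 33.8 CPM in native vessels, a log2 fold change of 4.20 ± 0.47 (edgeR adjusted p = 0.000702), and its call held. RGS5, a regulator of G protein signalling in mural cells, had 58.9 and 33.0 CPM in low-flow and 473 and 945 CPM in native vessels (log2 fold change -3.95 ± 0.80, edgeR adjusted p = 0.0109); the RGS5 call was lost without low-flow replicate 1 (edgeR adjusted p = 0.0728), without low-flow replicate 2 (edgeR adjusted p = 0.109) and without native replicate 2 (edgeR adjusted p = 0.0617).

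Beyond the lists, the 12 largest rises among the more abundant genes with separate groups included CHI3L1, PAPPA and ACP5. CHI3L1, a chitinase-like glycoprotein of inflamed tissue (chromosome 9, 113885541 to 113895033), had 72.9 and 238 CPM in low-flow and 0.716 and 0.230 CPM in native vessels, a log2 fold change of 8.37 ± 1.30 (edgeR adjusted p = 0.00317). PAPPA, a protease that cleaves binding proteins of insulin-like growth factors, had 68.4 and 59.1 CPM in low-flow and 3.00 and 2.65 CPM in native vessels, a log2 fold change of 4.496 ± 0.45 (edgeR adjusted p = 0.000374). Both calls held, while that of the acid phosphatase ACP5 (log2 fold change 4.77 ± 0.88) did not, since the ACP5 call was lost without native replicate 1 (edgeR adjusted p = 0.0705) and without native replicate 2 (edgeR adjusted p = 0.0752). The 12 largest falls included ADAMTS8, CA3, MYL4 and ACTA1. ADAMTS8, an antiangiogenic protease (chromosome 9, 57090313 to 57113077), had 1.67 and 1.75 CPM in low-flow and 388 and 347 CPM in native vessels, a log2 fold change of -7.74 ± 0.81 (edgeR adjusted p = 0.000502). CA3, a carbonic anhydrase of muscle and fat, had 0.214 and 0.734 CPM in low-flow and 219 and 185 CPM in native vessels, a log2 fold change of -8.68 ± 1.06 (edgeR adjusted p = 0.000938). MYL4, an atrial myosin light chain, had 3.38 and 3.29 CPM in low-flow and 473 and 120.4 CPM in native vessels, a log2 fold change of -6.47 ± 0.73 (edgeR adjusted p = 0.000702). All 3 calls held. ACTA1, skeletal muscle actin, had 2.48 and 3.01 CPM in low-flow and 276 and 6.15 CPM in native vessels, so that native replicate 1 alone stood high, and the ACTA1 call was lost without low-flow replicate 1 (edgeR adjusted p = 0.206), without low-flow replicate 2 (edgeR adjusted p = 0.183) and without native replicate 1 (edgeR adjusted p = 0.624).

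Few genes passed the joint test between low-flow and high-flow vessels without a stent. Of 15348 genes tested 16 were called (0.104%), 4 higher (0.0261%) and 12 lower (0.0782%) in low-flow, although the unadjusted p was under 0.05 for 1236 genes. The low-flow and high-flow libraries did not overlap for 45.2% of all genes tested. Without low-flow replicate 1 the test called 10 genes, without low-flow replicate 2 it called 5, without high-flow replicate 1 it called 11 and without high-flow replicate 2 it called 13. Of the 16, 11 carry no symbol. In all 16 the 4 low-flow and stented static libraries lay on one side of the other 7 libraries, below them for 12 genes and above them for 4. Over all genes tested the shares were 0.958% and 1.10%. The 16 genes were selected by their call between low-flow and high-flow. Part of the separation came with that selection, so the shares over all genes are not a like comparison. The same split is seen in the Y-linked genes and in the numbers in the processed names, which are highest in low-flow and stented static. For these 16 genes flow cannot be told apart from the source animals. KDM5D, a Y-linked histone demethylase, had 0 reads in low-flow and 816 in high-flow, at least 361-fold lower (bound at 3 reads over the 2 low-flow libraries). EIF1AY, a Y-linked translation factor, had 1 read in low-flow and 643 in high-flow, a level 854-fold higher in high-flow with a 95% counting interval of 153 to 33771. The KDM5D call was lost without low-flow replicate 2 (edgeR adjusted p = 0.0543).

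AVPR1A, the vasopressin V1a receptor that constricts smooth muscle (chromosome 5, 27824991 to 27832794), had 1.37 and 0.559 CPM in low-flow and 27.9 and 13.9 CPM in high-flow. Every low-flow library lies below every other library of the series, and high-flow lies above them all. The stented high-flow libraries had 6.17, 6.73 and 3.94 CPM, the stented static libraries 2.33 and 2.01 CPM, and the native libraries 3.06 and 3.22 CPM. The log2 fold change of low-flow over high-flow was -4.44 ± 0.57 (edgeR adjusted p = 0.0113), and the edgeR adjusted p was 0.0530 without low-flow replicate 1, 0.218 without low-flow replicate 2, 0.0817 without high-flow replicate 1 and 0.0148 without high-flow replicate 2. CGNL1, a tight junction protein of the cingulin family (chromosome 1, 114424148 to 114628331), had 174 and 183 CPM in low-flow and 65.4 and 59.3 CPM in high-flow, a log2 fold change of 1.52 ± 0.24 (edgeR adjusted p = 0.0497). GATM, which makes the creatine precursor guanidinoacetate (chromosome 1, 126361968 to 126378705), had 41.8 and 48.7 CPM in low-flow and 12.2 and 6.21 CPM in high-flow, a log2 fold change of 2.30 ± 0.36 (edgeR adjusted p = 0.0497). Both sit at the threshold, and both calls were lost without any 1 of the 4 libraries (edgeR adjusted p 0.277 to 0.562 for CGNL1 and 0.0541 to 0.420 for GATM). Of the 44 lists, AVPR1A and the Y-linked genes were the only members called between low-flow and high-flow. The list medians between these groups were -0.90 for immediate early genes, 0.77 for contractile genes, -0.14 for glycolysis and hypoxia and 0.42 for matrix proteases, beside a median of -0.00 over all genes tested. Complement genes had a median of 0.97, macrophage markers of 0.82 and cardiomyocyte markers of -1.24.

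**Figure D5:**
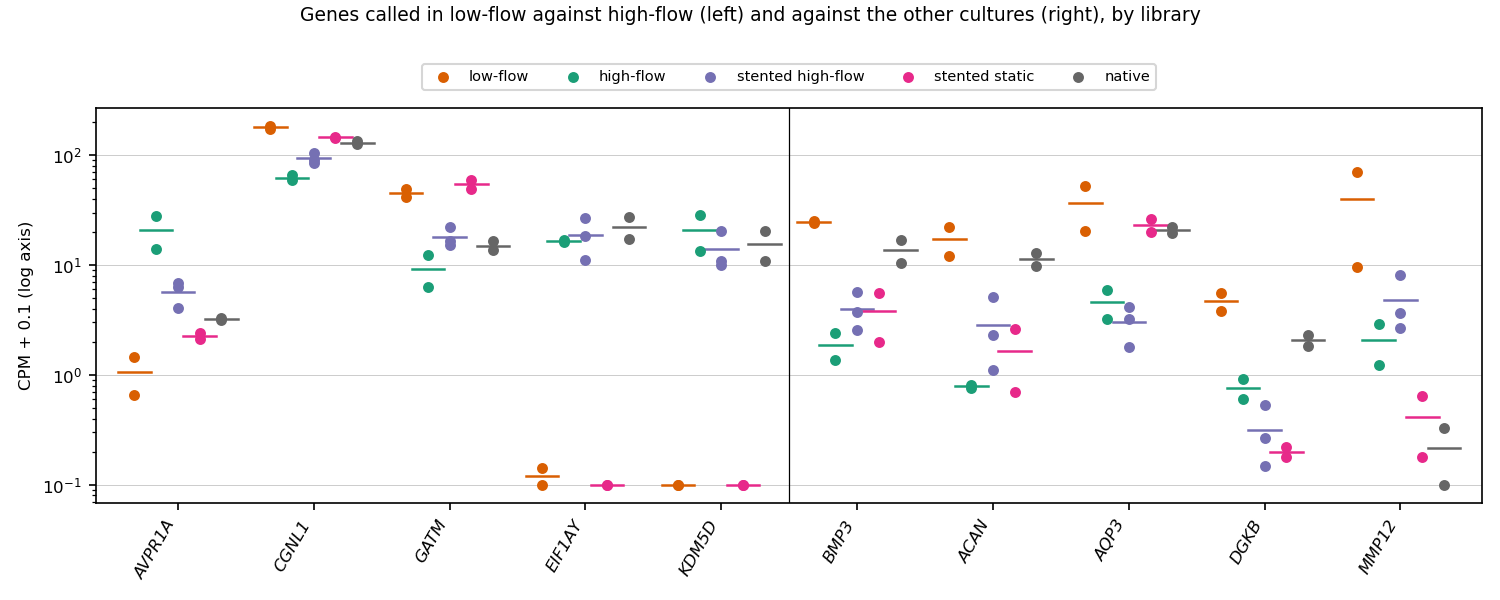
CPM + 0.1 on a log axis, 1 point per library and a bar at the group mean, for the named genes called in low-flow against high-flow (left panel) and in low-flow against the mean of the other cultures (right panel), with groups in the order low-flow, high-flow, stented high-flow, stented static and native. EIF1AY and KDM5D lie at or near 0 in low-flow and stented static, and BMP3 and ACAN are higher in low-flow and native than in the other cultures.

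Against the mean of the 3 other cultured groups, 11 genes were called (0.0717%), 9 higher (0.0586%) and 2 lower (0.013%), with 1138 genes at an unadjusted p under 0.05, and 6 of the 11 carry no symbol. BMP3, a bone morphogenetic protein that antagonises its relatives, had 25.2 and 23.9 CPM in low-flow, and 1.27 to 5.61 CPM over the 7 other cultured libraries. Native vessels had 16.8 and 10.4 CPM. ACAN, aggrecan, the large proteoglycan of cartilage also made in arteries, had 22.2 and 11.95 CPM in low-flow, 0.593 to 4.99 CPM in the other cultures and 12.6 and 9.78 CPM in native vessels. The low-flow libraries did not overlap the other 7 cultured libraries for 6.91% of all genes tested, and lay above them for 3.8%. For both genes low-flow lay near or above the native libraries and the other cultures lay below them. The log2 fold changes of low-flow over the other cultures were 3.06 ± 0.39 (edgeR adjusted p = 0.0250) for BMP3 and 3.58 ± 0.52 (edgeR adjusted p = 0.0408) for ACAN. MMP12 had 9.55 and 70.6 CPM in low-flow, and 0.0790 to 8.06 CPM in the other cultures, a log2 fold change of 4.84 ± 0.70 (edgeR adjusted p = 0.0408). DGKB, a diacylglycerol kinase, and AQP3, a water and glycerol channel, had log2 fold changes of 4.23 ± 0.52 (edgeR adjusted p = 0.0206) and 2.44 ± 0.36 (edgeR adjusted p = 0.0458). AQP3 was at 19.9 and 26.2 CPM in stented static, where the groups overlap. Without low-flow replicate 2 edgeR's test called 0 genes, with 489 at an unadjusted p under 0.05 and an adjusted p of 0.286 for BMP3 and ACAN, 0.394 for DGKB and 0.996 for AQP3 and MMP12, and without stented static replicate 2 it called 34 genes. When each of the 9 cultured libraries was left out in turn, BMP3 was called in 6 of the 9 fits, DGKB in 4, and ACAN, AQP3 and MMP12 in 3 each.

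The authors' deposited table for low-flow against native lists 928 genes. It matches 894 of the genes tested here, of which 822 (91.9%) passed this test with the same sign and 0 passed it with the other sign, and 1082 of the genes called here are not in the authors' deposited table.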

How the data were processed

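The protocols in the labels describe paired-end libraries of total RNA from flash-frozen vessels. Trimming with Trimmomatic, quality control with FastQC, the build Sscrofa11.1 and testing with DESeq2 by the authors are recorded in the submitters' processing notes. The aligner and annotation release are, in the sources used here, not given. The deposited values are raw counts per gene in 2 tables with identical native columns, which were joined on gene identifiers. The authors' deposited table of changed genes holds log2 fold changes and served only for the check at the end of the results. Of 25880 identifiers 14857 carry a symbol, and positions are RefSeq positions matched by symbol.

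The analysis used R 4.3.3 and edgeR 4.0.16: filterByExpr, TMM scaling and a quasi-likelihood F-test on 1 model of the 5 groups, adjusted by Benjamini-Hochberg over 15348 genes with a threshold of 0.05. Standard errors are the log2 fold change divided by the square root of F. Low-flow was compared with native, with high-flow and with the mean of the 3 other cultured groups. A count of 3 equals 0.112 to 0.222 CPM of a library's unscaled total, and intervals on reads (95%, exact binomial) and bounds cover counting error only. The 44 gene lists hold 977 genes, 804 of them tested. Members and lists were chosen with earlier results of these data known. The named genes are the 12 largest rises and falls with a mean log2 CPM of at least 3 (prior count 2) and no overlap, up to 4 called members of each list, and a set of followed genes. HK1, HK2, GPI, ENO1, PKM, TIMP1, MMP2, MMP14, ADAMTS1, JUN, IER2, NR4A2, DUSP1, NPAS2, BMAL1, CD68, AVPR1A, the Y-linked genes against high-flow and the genes named against the other cultures were picked with their values in view. Alternatives were DESeq2 1.42.0, limma-voom (limma 3.58.1), other scaling, filters and thresholds, fewer libraries, a replicate block and each library left out. Where that leaves 1 library in a group, it is assumed to vary like the other groups. Values of a called gene that belongs to some of the lists are not reported here.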

Additional observations from a re-analysis of the deposited data

Results flagged for a closer look

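The first 5 of these genes were called between low-flow and high-flow, so that their difference from native is not the same in both. Their log2 fold change was 1.52 for CGNL1, 2.30 for GATM and -4.44 for AVPR1A. KDM5D was at least 361-fold lower in low-flow than in high-flow, and EIF1AY was 854-fold higher in high-flow, with 1 read in low-flow. All 5 separate the low-flow and stented static libraries from the other 7 libraries. A further 5 genes were called against the mean of the 3 other cultured groups, which is not a call against any single group. Here the log2 fold change was 4.84 for MMP12, 4.23 for DGKB, 3.06 for BMP3, 3.58 for ACAN and 2.44 for AQP3. Only the EIF1AY call held without each library of its comparison in turn. Groups of 2 or 3 libraries were not searched for outlying samples.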

How the results depend on the processing

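Against native, the count of 1904 called genes became 2902 with DESeq2, 550 at a threshold of 0.01, 4884 in a fit of the 2 groups alone, 3363 with only the count table that holds the low-flow libraries, and 361 to 556 with a library left out. It stayed within 1.5 times with limma-voom (2136), RLE size factors (1927), no filter (2318), 10 counts in every library (1350) and without mitochondrially encoded genes (1895). Against high-flow, the 16 genes became 105 with DESeq2 (54.3% of them higher), 54 without a filter (40.7%), 46 with only that count table (43.5%), 2 with 10 counts in every library, 10 at 0.01 and 5 to 13 with a library left out; 14.3% of 14 were higher without mitochondrially encoded genes. Against the other cultures, the 11 genes became 110 with DESeq2, 74 without a filter, 0 with 10 counts in every library (888 at an unadjusted p under 0.05), 1 at 0.01, 2 in a fit of the cultured groups alone and 0 to 34 with a library left out. The causes were not tested. Of the named genes COL1A1 alone changed sign, with a log2 fold change of -0.054 without native replicate 1 and 0.33 without native replicate 2.

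Replicate numbers in the titles are shared between groups. For samples of the same number the correlation of deviations was -0.12 for low-flow with native and 0.18 for low-flow with high-flow. With so few libraries per group, these values cannot decide whether the title numbers pair the samples. The replicate block gave 1685 genes against native, 14 against high-flow and 7 against the other cultures, and the crossed pairing, chosen after seeing the data, gave 1857 against native. The count table that holds the low-flow libraries has no stented library, so the 3363 genes called with it alone do not rest on the pair that shares a number in its processed names. Levels under 0.112 to 0.222 CPM, which is 3 counts, are below what the depth resolves.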
